A study of Mus musculus with 2 samples.

Results

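The genes described here are 9 genes of regulatory T cells and of T cell costimulation, Foxp3, Il2ra, Ikzf2, Ctla4, Tnfrsf4, Tnfrsf9, Tnfrsf18, Icos and Cd28, of 31053 genes in the deposited count tables. They were chosen by symbol, and all 9 were found in both libraries. The data are droplet single-cell RNA sequencing, with 3' v3 chemistry, of tumours formed in mice by MC38 cells, a mouse colon carcinoma line. The UBD library came from tumours overexpressing UBD, a ubiquitin-like modifier also called FAT10, and the control library from control tumours. The labels call the tissue of both libraries a subcutaneous xenograft. No source used here gives the construct, the mouse strain, the age or the number of tumours in each library. With 1 library per group there was no replicate check, group and library cannot be told apart, and every interval below covers counting error only.

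Regulatory T cells are CD4 T cells that restrain other lymphocytes and are defined by the transcription factor Foxp3. A T cell needs a signal through its antigen receptor together with costimulation through CD28, which binds CD80 and CD86 on antigen-presenting cells. Activated T cells add inducible receptors of the CD28 family and of the TNF receptor family, and in tumours regulatory T cells are known to carry many of them at high levels.

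All 9 genes are annotated as protein-coding (GENCODE vM21 on GRCm38), and several are neighbours. Cd28 (ENSMUSG00000026012) lies on chromosome 1 from 60716800 to 60773359, Ctla4 (ENSMUSG00000026011) from 60887000 to 60915832 and Icos (ENSMUSG00000026009) from 60977927 to 61000320, all on the plus strand, with gaps of 114 kb and 62.1 kb between them. Tnfrsf4 (ENSMUSG00000029075; chromosome 4, 156013843 to 156016612) and Tnfrsf18 (ENSMUSG00000041954; chromosome 4, 156026164 to 156028895) are 9.55 kb apart on the plus strand. Tnfrsf9 (ENSMUSG00000028965) lies on the same chromosome from 150914562 to 150946102. The other members are Foxp3 (ENSMUSG00000039521; chromosome X, 7573644 to 7595245), Il2ra (ENSMUSG00000026770; chromosome 2, 11642807 to 11693193) and Ikzf2 (ENSMUSG00000025997; chromosome 1, 69531214 to 69687245, minus strand). Tnfrsf4 and Cd28 overlap no other annotated gene. The spans of the other 7 overlap at least 1 other gene, among them Ccdc22 and Ppp1r3f on the strand opposite Foxp3 and Camta1 on the strand opposite Tnfrsf9. Whether the counting used strand is not given in the sources used here, so reads of such partners may not be separable.

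Promoter sequences (250 bases before to 50 bases after a start, RefSeq, GRCm38.p6) were matched for 6 of the 9 genes: Foxp3, Il2ra, Ctla4, Tnfrsf4, Tnfrsf9 and Tnfrsf18. Ikzf2, Icos and Cd28 are named only. They were searched on both strands for letters of factors that act downstream of these receptors: GGGNNNNNCC for NF-kB, TGANTCA for AP-1, TTCNNNGAA for STAT factors, the core TGGAAA for NFAT and TGTTTAC for forkhead factors. GGGNNNNNCC was in 50.8% of all 32817 mouse promoters in the table, TGGAAA in 21.4%, TTCNNNGAA in 8.29%, TGANTCA in 7.81% and TGTTTAC in 3.65%. The second Tnfrsf9 start is shown because it held 3 of the 5 motifs, Il2ra because its level in T cells differed most between the libraries, and Tnfrsf4 and Tnfrsf18 because they are neighbours whose ratios were alike. Capitals mark the matched letters; all 4 are plus-strand windows, at chr4:150927749-150928048, chr2:11642542-11642841, chr4:156013445-156013744 and chr4:156026072-156026371.
Tnfrsf9, second start: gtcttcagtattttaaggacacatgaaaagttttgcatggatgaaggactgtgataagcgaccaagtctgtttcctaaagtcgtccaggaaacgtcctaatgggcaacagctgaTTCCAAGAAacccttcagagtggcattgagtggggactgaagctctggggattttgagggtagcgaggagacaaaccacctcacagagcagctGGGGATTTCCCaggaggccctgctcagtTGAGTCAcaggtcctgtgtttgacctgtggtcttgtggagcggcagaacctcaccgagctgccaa
Il2ra: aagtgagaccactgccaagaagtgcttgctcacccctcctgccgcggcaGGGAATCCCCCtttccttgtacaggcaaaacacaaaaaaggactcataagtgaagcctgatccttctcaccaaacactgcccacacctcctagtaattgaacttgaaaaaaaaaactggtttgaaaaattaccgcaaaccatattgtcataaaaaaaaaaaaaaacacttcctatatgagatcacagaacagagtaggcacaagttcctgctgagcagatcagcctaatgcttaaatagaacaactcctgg
Tnfrsf4: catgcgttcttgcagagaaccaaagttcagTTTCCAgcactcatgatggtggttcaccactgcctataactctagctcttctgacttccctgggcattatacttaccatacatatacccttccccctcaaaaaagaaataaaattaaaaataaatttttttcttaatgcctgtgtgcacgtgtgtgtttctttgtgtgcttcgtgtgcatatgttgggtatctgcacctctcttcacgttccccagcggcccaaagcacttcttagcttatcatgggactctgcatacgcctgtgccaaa
Tnfrsf18: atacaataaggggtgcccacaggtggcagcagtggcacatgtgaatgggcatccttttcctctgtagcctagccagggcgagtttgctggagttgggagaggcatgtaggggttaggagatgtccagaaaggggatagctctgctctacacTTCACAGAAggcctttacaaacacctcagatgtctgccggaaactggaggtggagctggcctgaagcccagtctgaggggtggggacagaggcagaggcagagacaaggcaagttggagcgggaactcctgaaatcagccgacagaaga
The Tnfrsf9 window held a STAT match, 2 overlapping NF-kB matches in GGGGATTTCCC and an AP-1 match. The Il2ra window held 2 overlapping NF-kB matches in GGGAATCCCCC. Tnfrsf4 held an NFAT core and Tnfrsf18 a STAT match, so the neighbours shared no matched motif in these windows. TGTTTAC was in none of the windows of the 6 matched genes. A match describes these letters and is not evidence of a bound site.

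After barcode filters and doublet removal, 13057 UBD and 13823 control cells remained, with medians of 12186 and 4334 unique molecular identifiers (UMIs, counted cDNA molecules) per cell. T cells, taken as cells with 2 or more summed UMIs of Cd3e, Cd3d and Cd3g, numbered 612 in the UBD library, with a median of 2786.5 UMIs, and 584 in the control library, with a median of 3347. All 8 T cell markers of a separate list were detected in them, at a summed 1949 and 2084 CPM (UMIs of a gene per 1000000 UMIs). The libraries shared 71 cell barcodes. Among the T cells, 114 UBD cells (18.6%) and 85 control cells (14.6%) also held 3 or more UMIs of myeloid gate genes or of Cdkn2a, a marker of the MC38 cells, and these mixed cells held 53.5% and 49.6% of all T cell UMIs. Monocyte and macrophage markers (7 of 7 detected) summed to 2944 CPM in UBD and 620 CPM in control T cells, and to 282 and 276 CPM without the mixed cells. Tumour-line markers summed to 645 and 877 CPM in T cells, and Gm42418, a gene that collects ribosomal RNA reads, stood at 3124 and 7443 CPM. B and plasma cell markers summed to 2.12 and 1.75 CPM in T cells, with Cd79a and Ms4a1 at 0 in both libraries. The part of these values in the differences below was not tested.

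T cells were then split by UMIs of Foxp3, Cd4 and Cd8a. Foxp3+ cells, with at least 1 Foxp3 UMI, were 25 of 612 T cells in the UBD library (4.08%, 95% Clopper-Pearson interval 2.66% to 5.97%) and 52 of 584 in the control library (8.90%, 6.72% to 11.5%). Of the remaining cells, those with a Cd8a but no Cd4 UMI numbered 354 in the UBD library (57.8%, 53.8% to 61.8%) and 258 in the control library (44.2%, 40.1% to 48.3%). Cells with a Cd4 but no Cd8a UMI numbered 23 in each library. Cells with neither numbered 209 and 250, and 1 cell in each library had both. Foxp3+ cells were thus a smaller share, and CD8 cells a larger share, of the UBD T cells. Median depths of Foxp3+ cells were 2615 UMIs in the UBD and 2325 UMIs in the control library, and a cell with few UMIs is less often seen to hold a Foxp3, Cd4 or Cd8a UMI.

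Across all T cells, 6 of the 9 genes were more than 1.5-fold lower in the UBD library and none was more than 1.5-fold higher. Of all 10709 genes with at least 20 UMIs in T cells, 12.4% were past 1.5-fold lower and 8.64% past 1.5-fold higher. The median log2 ratio was -0.64 over the 9 genes and -0.008 over all genes tested. Ctla4 and Icos lay closest to a ratio of 1. Levels below are CPM of UMIs summed over the cells, so they compare 1 gene between cells and not genes with each other.

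Foxp3, the lineage factor, had 36 UMIs (10.9 CPM) in UBD T cells and 80 UMIs (20.03 CPM) in control T cells, a ratio of 0.545 (95% interval 0.357 to 0.817). Ikzf2, which encodes the zinc finger factor Helios found in many regulatory T cells, stood at 88.2 CPM in UBD and 145 CPM in control T cells, a ratio of 0.608 (0.527 to 0.702). Il2ra, the IL-2 receptor alpha chain (CD25) that regulatory T cells carry constitutively and other T cells gain on activation, stood at 23.6 CPM in UBD and 50.6 CPM in control T cells, a ratio of 0.467 (0.355 to 0.610). The 3 genes most closely tied to the regulatory lineage were thus each lower in the UBD library, with intervals below 1. Cells with a Foxp3 UMI held 21.6% of the Ikzf2 UMIs in UBD and 32.6% in control T cells, and 44.9% and 26.2% of the Il2ra UMIs. Most UMIs of Ikzf2 and Il2ra thus came from T cells without a Foxp3 UMI. In bulk-like sums of this kind, fewer cells of a type and less RNA per cell cannot be told apart.

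Among the inducible TNF receptor family members, which bind ligands on antigen-presenting cells and signal through TRAF adaptors to NF-kB, Tnfrsf4 (OX40) stood at 165 CPM in UBD and 258 CPM in control T cells, a ratio of 0.6399 (0.576 to 0.711). Tnfrsf18 (GITR) stood at 142 and 218 CPM, a ratio of 0.648 (0.578 to 0.726). Tnfrsf9 (CD137) stood at 157 and 217 CPM, a ratio of 0.724 (0.648 to 0.808), which is within 1.5-fold. The neighbours Tnfrsf4 and Tnfrsf18 therefore had almost the same ratio, and Tnfrsf9 was lower by less.

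Within the CD28 family, the members did not move alike. Cd28, the constitutive receptor, stood at 83.3 CPM in UBD and 131 CPM in control T cells, a ratio of 0.636 (0.548 to 0.738). Ctla4, the inhibitory receptor that competes with CD28 for CD80 and CD86, stood at 200.3 and 210.3 CPM, a ratio of 0.953 (0.859 to 1.06). Icos, an inducible receptor for ICOS ligand, stood at 174 and 195 CPM, a ratio of 0.893 (0.7999 to 0.996). The interval of Ctla4 spans 1 and lies within 1.5-fold on either side.

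Without the mixed cells, 4 of the 9 genes were past 1.5-fold lower, against 12.2% of all genes tested: Foxp3, Il2ra, Ikzf2 and Cd28. Tnfrsf4 then stood at 293 CPM in UBD and 412 CPM in control T cells, a ratio of 0.711 (0.632 to 0.798), and Tnfrsf18 at 261 and 371 CPM, a ratio of 0.705 (0.623 to 0.797). Ctla4 stood at 369 and 367 CPM, a ratio of 1.01 (0.9003 to 1.12).

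**Figure D1:**
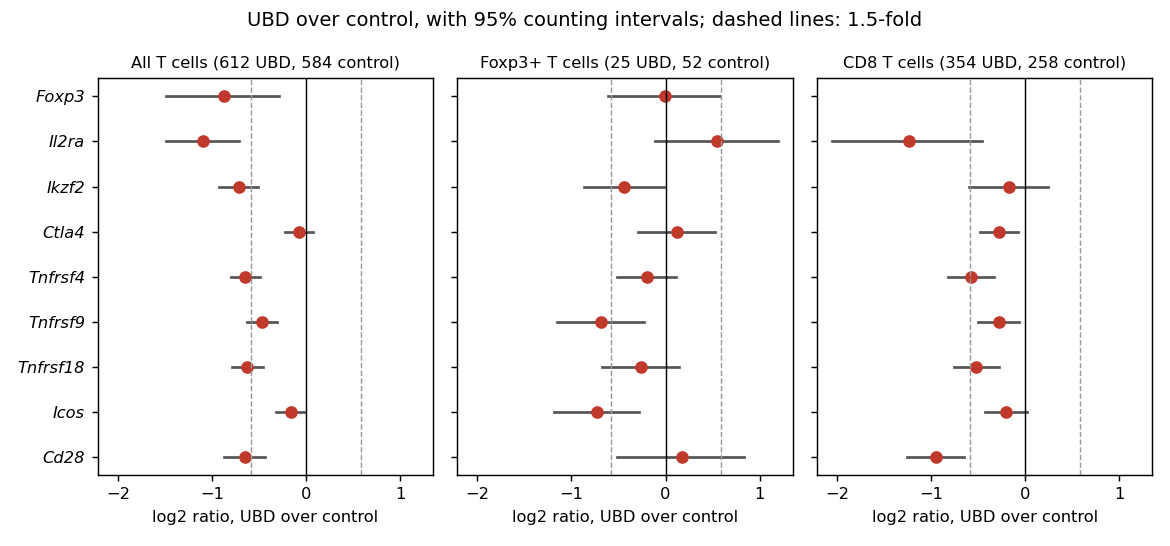
Log2 ratios of CPM, UBD over control, for the 9 genes in all T cells and in T cell subsets; points are ratios, bars are exact 95% counting intervals and dashed lines mark 1.5-fold. In all T cells the points of Foxp3, Il2ra, Ikzf2, Tnfrsf4, Tnfrsf18 and Cd28 lie below the lower dashed line, and Ctla4 lies near 0 at -0.07.

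The mix of T cells differed between the libraries, so each subset was compared on its own. When the UBD subset levels were weighted by the control library's share of T cell UMIs in each subset, a calculation added after the data were seen, 1 of the 9 genes stayed past 1.5-fold lower. That gene was Il2ra, at 32.9 CPM in UBD and 50.6 CPM in control T cells (1.54-fold lower). Foxp3 then stood at 19.98 CPM in UBD and 20.03 CPM in control T cells. Its UMIs set the subsets and all lay in Foxp3+ cells, so its value here follows largely from the weighting and is a description. Cd28 was 1.48-fold lower and Tnfrsf18 1.43-fold lower, so neither passed 1.5-fold but both kept their direction. The share of all genes past 1.5-fold was not taken under this weighting. The weights also include the mixed cells. CD8 cells held 58.9% of UBD and 44.4% of control T cell UMIs, but 66.1% and 60.7% without the mixed cells. In T cells without a Foxp3 UMI, 2 of the other 8 genes were past 1.5-fold lower, against 11.8% of all genes: Il2ra at 13.6 and 40.4 CPM (2.97-fold lower) and Cd28 at 77.5 and 126 CPM (1.62-fold lower).

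In Foxp3+ cells, which were 25 UBD and 52 control cells, Foxp3 itself stood at 258 CPM and 259 CPM; it defined the cells, and this is a description. Among the 9 genes 2 were past 1.5-fold lower, against 23.5% of genes tested there, and none was past 1.5-fold higher, against 12.5%. Icos stood at 381 CPM in UBD and 628 CPM in control Foxp3+ cells, a ratio of 0.606 (0.438 to 0.824). Tnfrsf9 stood at 373 and 599 CPM, a ratio of 0.623 (0.449 to 0.852). Both intervals lie below 1, but the share of members past 1.5-fold is near that of all genes. The remaining members were within 1.5-fold. Ikzf2 stood at 452 and 612 CPM, Tnfrsf4 at 862 and 988 CPM, and Tnfrsf18 at 517 and 619 CPM. Ctla4 stood at 546 and 502 CPM, Cd28 at 215 and 191 CPM, and Il2ra at 251 and 172 CPM, a ratio of 1.46 (0.927 to 2.29). Il2ra was thus lower in UBD T cells as a whole but not in those with a Foxp3 UMI. Monocyte and macrophage markers summed to 5421 CPM in UBD and 525 CPM in control Foxp3+ cells, and to 212 and 351 CPM without the 6 and 5 mixed cells. Without these, 3 genes were past 1.5-fold lower, against 24.4% of genes: Icos (ratio 0.468, 0.313 to 0.682), Tnfrsf9 (0.539, 0.373 to 0.764) and Ikzf2 (0.634, 0.452 to 0.875).

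In CD8 cells, of which there were 354 UBD and 258 control cells, 2 of 8 genes were past 1.5-fold lower, against 11.8% of all genes, and none was past 1.5-fold higher, against 12.7%. Cd28 stood at 76.2 CPM in UBD and 147 CPM in control CD8 cells, a ratio of 0.517 (0.420 to 0.635). Il2ra stood at 10.8 and 25.4 CPM, a ratio of 0.426 (0.241 to 0.730). The same 2 genes were past 1.5-fold without the mixed cells, against 12.1% of genes, with Cd28 at 115 and 204 CPM and Il2ra at 18.7 and 36.0 CPM. Tnfrsf4 stood at 125 and 186 CPM (1.49-fold lower) and Tnfrsf18 at 131 and 187 CPM (1.43-fold lower). Ctla4 stood at 200 and 243 CPM, Tnfrsf9 at 170 and 207 CPM, Icos at 174 and 200 CPM and Ikzf2 at 50.4 and 57.0 CPM. These last 4 genes were all within 1.5-fold. Monocyte and macrophage markers summed to 2593 CPM in UBD and 508 CPM in control CD8 cells, and to 269 and 195 CPM without the mixed cells.

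The 23 CD4 cells of each library without a Foxp3 UMI gave wide intervals, and 7 of the genes had enough UMIs to be compared. Ikzf2 was lower, with 12 UMIs (141 CPM) in UBD and 43 UMIs (319 CPM) in control cells, a ratio of 0.441 (0.212 to 0.852). Icos was past 1.5-fold higher, at 481 and 312 CPM, a ratio of 1.54 whose interval (0.979 to 2.43) spans 1. These are 1 of 7 genes lower, against 26.3% of genes tested, and 1 of 7 higher, against 18.5%. Tnfrsf4 stood at 563 and 378 CPM, and Ctla4 at 282 and 260 CPM. Monocyte and macrophage markers summed to 15085 CPM in these UBD cells and 779 CPM in the control cells, and to 316 and 652 CPM without the 3 mixed cells of each library. Without these, Icos stood at 769 and 708 CPM, a ratio of 1.09 (0.677 to 1.75). No gene was then past 1.5-fold higher, against 19.1% of genes, and 2 were lower, Ikzf2 and Cd28, against 18.3%.

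Cells with neither a Cd4 nor a Cd8a UMI, 209 and 250 in number, held 3 of 8 genes past 1.5-fold lower, against 14.3% of all genes, and none past 1.5-fold higher, against 11.4%. Il2ra stood at 12.5 CPM in UBD and 52.4 CPM in control cells, a ratio of 0.238 (0.125 to 0.419), which was its lowest ratio among the subsets. Tnfrsf18 stood at 98.7 and 166 CPM (1.68-fold lower) and Tnfrsf4 at 120 and 193 CPM (1.61-fold lower). Ctla4 stood at 148 and 121 CPM, higher in the UBD library by 1.22-fold. This group is mixed: 5 of its UBD cells and 28 of its control cells had a UMI of Ncr1, an NK cell receptor gene, and 41 and 55 were mixed cells. Monocyte and macrophage markers summed to 2203 and 738 CPM in it, and to 321 and 393 CPM without the mixed cells. Without the mixed cells 2 genes were past 1.5-fold lower, Il2ra and Tnfrsf18, against 15.7% of genes.

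**Figure D2:**
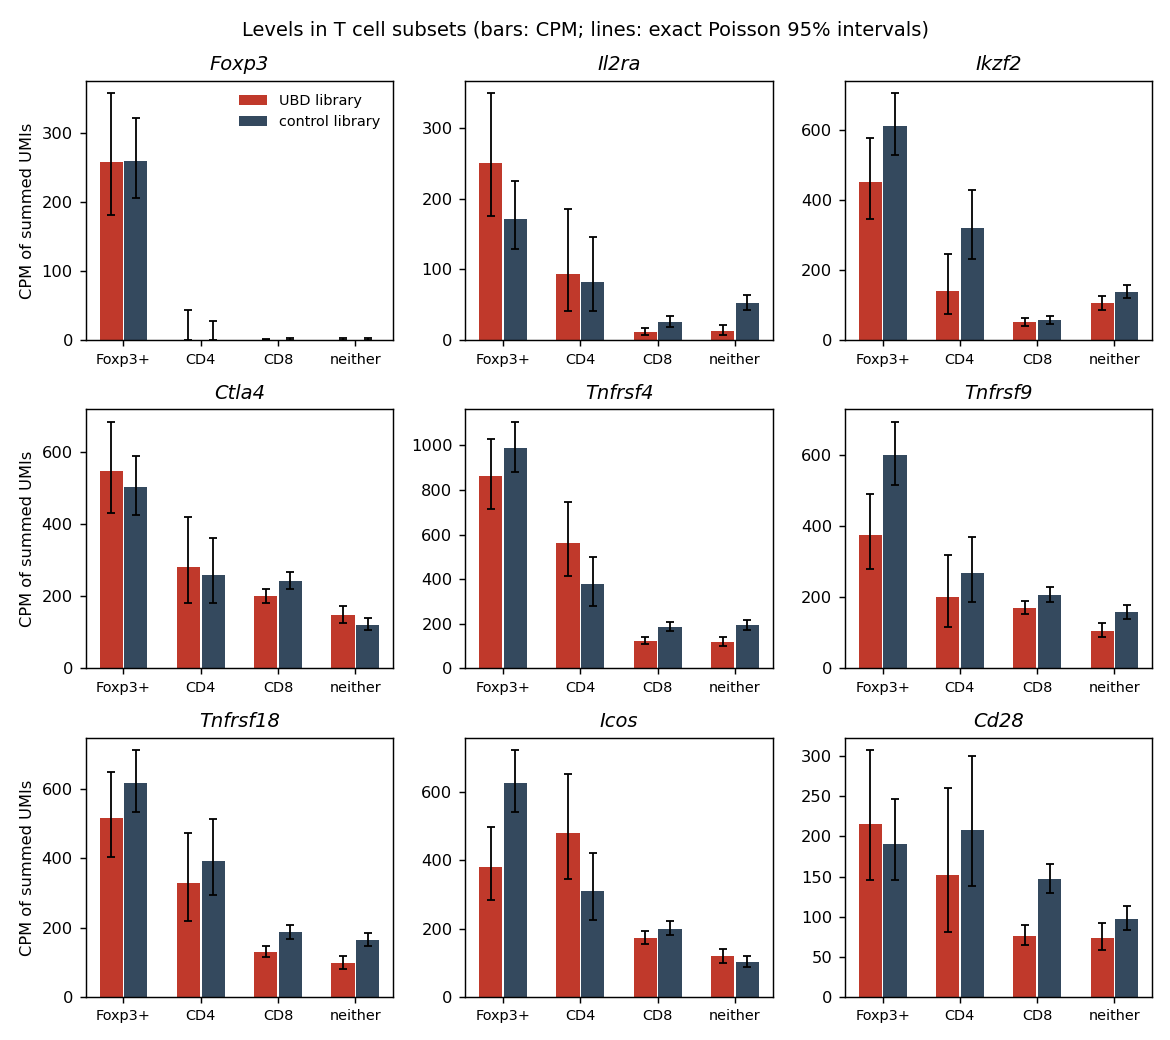
Bars are CPM of each gene in T cell subsets on a linear axis, with lines for exact 95% Poisson counting intervals. In each pair the UBD library is drawn left of the control library. For the 8 genes other than Foxp3, the Foxp3+ cells of both libraries lie above the CD8 cells, as for Tnfrsf4 at 862 and 988 CPM in Foxp3+ cells and 125 and 186 CPM in CD8 cells.

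Within each library, all 8 genes other than Foxp3 were more than 1.5-fold higher in Foxp3+ than in Foxp3- T cells. Of all genes tested, 20.4% in the UBD library and 23.8% in the control library were past 1.5-fold higher in Foxp3+ cells. All 8 were also past it without the mixed cells, as were 23.8% of genes in each library. Il2ra stood at 251 CPM in Foxp3+ and 13.6 CPM in Foxp3- cells of the UBD library, a ratio of 18.5 (11.5 to 29.5), and at 172 and 40.4 CPM in the control library, a ratio of 4.25 (3.04 to 5.85). An Il2ra UMI was seen in 30 of 587 UBD and 65 of 532 control Foxp3- cells, whose median depths were 2790 and 3577.5 UMIs. A regulatory T cell in which no Foxp3 UMI was counted also falls among the Foxp3- cells. Whether these differences exceed those between replicate libraries cannot be tested here. Ikzf2 was 6.27-fold higher in Foxp3+ cells of the UBD and 5.79-fold higher in those of the control library. For the TNF receptor family the ratios were 6.41 and 5.02 for Tnfrsf4, 4.14 and 3.35 for Tnfrsf18, and 2.53 and 3.23 for Tnfrsf9. For the CD28 family they were 2.95 and 2.70 for Ctla4, 2.31 (1.71 to 3.07) and 3.97 (3.36 to 4.68) for Icos, and 2.78 (1.84 to 4.07) and 1.52 (1.14 to 1.99) for Cd28. Ikzf2 and Ctla4 thus had like ratios in both libraries, and Il2ra, Icos and Cd28 had intervals that did not overlap or overlapped little.

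**Figure D3:**
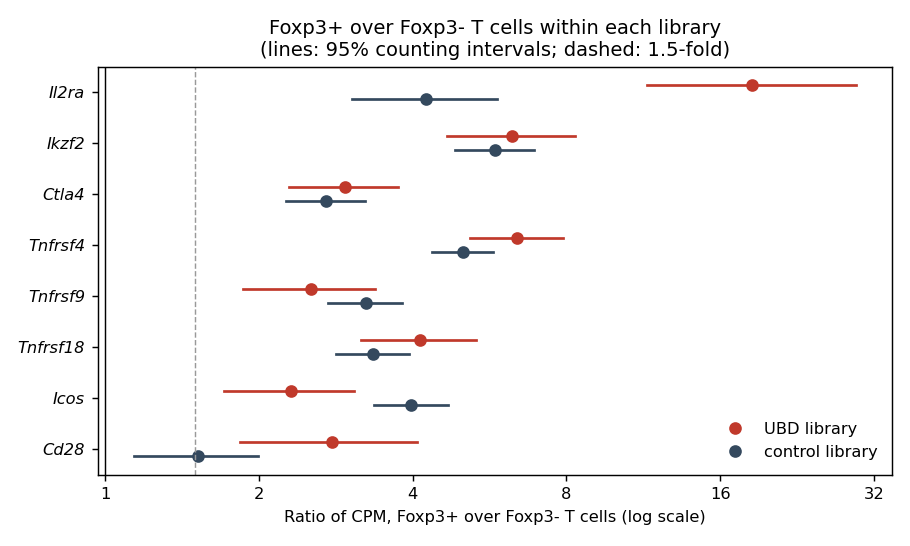
Ratio of CPM in Foxp3+ over Foxp3- T cells within each library on a log axis, for the 8 genes other than Foxp3, with exact 95% counting intervals. All points lie above 1.5, and Il2ra stands apart with 18.5 in the UBD and 4.25 in the control library.

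The order of levels over the T cell subsets was similar for most of the genes. Ikzf2, Tnfrsf4, Tnfrsf18, Il2ra and Icos were each more than 1.5-fold higher in CD4 than in CD8 cells of both libraries, and Cd28 was so in the UBD library (2.002-fold, 1.04 to 3.53), against 1.41-fold (0.919 to 2.09) in the control library. This gave 6 of 8 genes in the UBD library, where 22.3% of all genes were past 1.5-fold higher, and 5 of 8 in the control library, where 25.7% were. Without the mixed cells it was 6 of 8 in both, against 23.2% and 25.6% of genes, with Cd28 at ratios of 1.88 (0.913 to 3.49) and 2.01 (1.24 to 3.11). Ctla4 did not separate these subsets, with CD4 over CD8 ratios of 1.41 (0.890 to 2.12) and 1.07 (0.734 to 1.51), nor did Tnfrsf9, with 1.17 (0.676 to 1.91) and 1.29 (0.892 to 1.82). Foxp3+ cells exceeded Foxp3- CD4 cells by more than 1.5-fold for 6 of 8 genes in the UBD library, where 21.2% of genes did, and 7 of 8 in the control library, where 20.5% did. Cd28 was not past it in either, with ratios of 1.41 (0.715 to 2.95) and 0.920 (0.577 to 1.498), nor was Icos in the UBD library, at 0.791 (0.516 to 1.22). Without the mixed cells the numbers were 7 of 8 in both, against 21.1% and 23.9% of genes, with Cd28 at 1.81 (0.852 to 4.09) in the UBD library and 1.05 (0.629 to 1.81) in the control library. All of these Cd28 intervals span 1. Between cells with neither UMI and CD8 cells, Ikzf2 was past 1.5-fold higher in both libraries, by 2.08-fold and 2.42-fold. It was the 1 such gene in the UBD library, where 13.7% of genes were, and 1 of 2 in the control library, with Il2ra, where 19% were. Past 1.5-fold lower were Tnfrsf9 in the UBD library, where 13.4% of genes were, and Ctla4, Icos and Cd28 in the control library, where 14.2% were. Mixed cells held 63.7% of the UMIs of the UBD and 65.9% of those of the control cells with neither UMI. Without them 4 of 8 genes were past 1.5-fold higher in each library, against 10.8% and 12.5% of genes: Il2ra, Ikzf2 and Tnfrsf4 in both, with Cd28 in the UBD and Tnfrsf18 in the control library. None was then past 1.5-fold lower, so the order of these subsets depends on the mixed cells.

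The UMIs of these genes were spread over the subsets in different shares. Foxp3+ cells held 4.22% of the UMIs of all genes in UBD T cells and 7.73% in control T cells, CD8 cells 58.9% and 44.4%, and cells with neither Cd4 nor Cd8a 34.1% and 44.4%. Of all Ctla4 UMIs in T cells, 11.5% in the UBD and 18.5% in the control library came from Foxp3+ cells, against 58.9% and 51.3% from CD8 cells. Tnfrsf9 had 10.0% and 21.3% from Foxp3+ cells and 63.6% and 42.2% from CD8 cells. With mixed cells included, the share from Foxp3+ cells was for both genes above, and the share from CD8 cells within 7 percentage points of, that of all genes. Il2ra went the other way between the libraries: Foxp3+ cells held 44.9% of its UMIs in the UBD library and 26.2% in the control library, while cells with neither Cd4 nor Cd8a held 17.9% and 46.0%. Without the mixed cells, CD8 cells held 66.1% of the UBD and 60.7% of the control UMIs of all genes. They then held 65.0% and 49.6% of the Tnfrsf9 UMIs, and 59.4% and 53.3% of the Ctla4 UMIs.

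Shares of T cells with a UMI were compared after each cell was thinned to 1000 UMIs, which left 597 UBD and 572 control cells and dropped 15 and 12 shallower ones. Of the 9 genes, 7 had a difference in share whose 95% Newcombe interval lay below 0. This count was not taken over all genes at any depth, so it does not set the 9 genes apart from others. Tnfrsf18 was detected in 19.6% of UBD and 29.4% of control T cells, a difference of -9.77 percentage points (-14.7 to -4.85). Cd28 was detected in 13.1% and 20.98%, a difference of -7.91 (-12.2 to -3.61), and Il2ra in 2.18% and 7.34%, a difference of -5.17 (-7.76 to -2.76). Foxp3 was detected in 1.68% and 4.196%, a difference of -2.52 (-4.63 to -0.583). Ikzf2 was detected in 11.1% and 18.9%, Tnfrsf4 in 15.9% and 24.0%, and Tnfrsf9 in 17.1% and 22.9%. These 7 genes were thus seen in fewer UBD T cells at this depth. Thinned to 2000 UMIs, 4 had an interval below 0 (Foxp3, Il2ra, Tnfrsf18 and Cd28), and thinned to 500 UMIs, 6 did, with Foxp3 spanning 0. Ctla4 and Icos were again the exceptions: Ctla4 was detected in 24.0% and 24.5%, a difference of -0.522 (-5.44 to 4.38), and Icos in 25.5% and 24.3%, a difference of 1.16 (-3.80 to 6.10). Without thinning, the shares were 41.2% and 59.9% for Tnfrsf18, 30.7% and 49.3% for Cd28, 7.35% and 15.8% for Il2ra, and 49.7% and 51.7% for Ctla4. As a background, each gene but Tnfrsf9 was detected in at most 0.416% of thinned monocytes or macrophages of either library, and Tnfrsf9 in 3.23% and 1.73%.

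**Figure D4:**
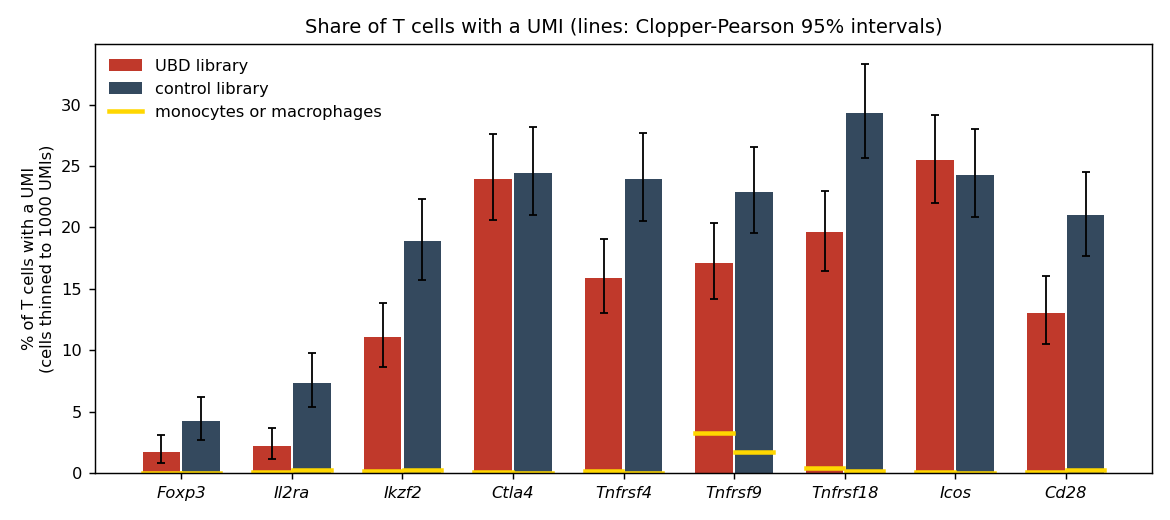
Percent of T cells with at least 1 UMI of each gene after thinning every cell to 1000 UMIs, with Clopper-Pearson 95% intervals, and the same share in monocytes or macrophages as background. UBD bars lie below control bars for 8 of the 9 genes, and Icos is at 25.5% and 24.3%.

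The genes were also counted per cell. At 1000 UMIs, a Foxp3+ cell held UMIs of on average 3.88 of the 9 genes in the UBD and 4.80 in the control library, against 1.14 and 1.44 for Foxp3- T cells. At least 4 of the genes were seen in 14 of 24 UBD Foxp3+ cells (58.3%) and 41 of 51 control Foxp3+ cells (80.4%), against 4.19% and 9.40% of Foxp3- T cells. These values count Foxp3 itself, which a Foxp3+ cell holds before thinning. CD8 cells held on average 1.06 and 1.31 of the genes, NK cells at most 0.740, and monocytes or macrophages 0.0427 and 0.0274. Within Foxp3+ cells Icos was detected at this depth in 37.5% of UBD and 62.7% of control cells, a difference of -25.2 percentage points (-45.5 to -1.16). Tnfrsf18 was detected in 12 of 24 UBD and 74.5% of control cells, a difference of -24.5 (-45.6 to -1.62).

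NK cells, taken as cells with an Ncr1 UMI and no Cd3 UMI, numbered 20 in the UBD and 175 in the control library. In the control library, Tnfrsf9 was almost as high in NK cells as in T cells, at 217 CPM in T and 173 CPM in NK cells, a ratio of 1.26 (1.08 to 1.46). The other 8 genes were more than 1.5-fold higher in T than in NK cells, where 19.4% of all genes were. Tnfrsf4 differed by most of these, at 258 CPM in T and 3.16 CPM in NK cells, a ratio of 81.8 (31.8 to 301). Ikzf2, Ctla4, Cd28 and Tnfrsf18 were between 1.82-fold and 1.99-fold higher in T cells. The control NK cells thus carried most of these genes, but little Tnfrsf4. In the UBD library, with 20 NK cells, all 9 genes were past 1.5-fold higher in T than in NK cells, as were 31.1% of all genes. Tnfrsf9 stood there at 157 CPM in T and 65.3 CPM in NK cells, and Il2ra and Tnfrsf4 had no UMI in NK cells. No Foxp3 UMI was counted in NK cells of either library. The 20 UBD NK cells held 2 Ctla4 UMIs (14.5 CPM), against 145 UMIs (114 CPM) in control NK cells, a ratio of 0.127 (0.0152 to 0.466), and 9 Tnfrsf9 UMIs (65.3 CPM), against 219 UMIs (173 CPM). All 6 genes that could be compared there were past 1.5-fold lower, against 25.6% of all genes, on few cells of 1 library. Each of the 6 reached the minimum of 20 summed UMIs through the control cells and had at most 9 UMIs in UBD cells. The count is therefore a description. Mixed cells held 69.5% of the UBD and 40.7% of the control NK UMIs. NK markers (7 of 7 detected in both) summed to 1125 and 1905 CPM, T cell markers to 443 and 797 CPM, and monocyte and macrophage markers to 1792 and 674 CPM. The part of these in the NK levels of either library, and in the lower UBD levels, was not tested.

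In monocytes or macrophages (1937 UBD and 3055 control cells) the genes were near 0 except Tnfrsf9. Tnfrsf9 had 544 UMIs (35.9 CPM) in the UBD and 399 UMIs (26.8 CPM) in the control library, a ratio of 1.34 (1.18 to 1.53). The other members were at or below 1.58 CPM in UBD and 3.96 CPM in control cells, and Foxp3 was at 0 in both, which allows up to 0.198 and 0.201 CPM. All 9 genes were past 1.5-fold higher in T cells than in these cells, as were 28.9% of all genes in the UBD and 33.1% in the control library. Of the 6 genes with enough UMIs, 5 were past 1.5-fold lower in UBD monocytes or macrophages, against 23.6% of all genes tested at any level. No share was taken over genes at levels as low as these members. T cell markers summed to 4.88 CPM in UBD and 8.32 CPM in control cells of this gate, and their part was not tested.

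A gate meant for mature dendritic cells (3 or more summed UMIs of Ccr7, Fscn1 and Ccl22) went against its name, since 73.0% of its 141 UBD cells and 79.1% of its 374 control cells held 3 or more Cdkn2a UMIs. All 9 genes were past 1.5-fold higher in T cells than in it, as were 16.6% and 16.2% of all genes. Of these cells, those with a Ccr7 UMI and fewer than 3 Cdkn2a UMIs, a choice made after the data were seen, numbered 35 and 70. Here Il2ra was higher than in T cells, at 23.6 CPM in T cells and 86.2 CPM in these cells of the UBD library, and at 50.6 and 135 CPM in the control library. Tnfrsf18 stood at 55.8 and 105 CPM and Tnfrsf4 at 40.6 and 57.6 CPM in these UBD and control cells, while Cd28 had no UMI in either. All 6 mature dendritic markers were detected in these cells, at a summed 9184 and 11595 CPM, but the list summed to 7196 and 5115 CPM in T cells too, where nearly all of it was Ccl5. Of the markers that did not set the gate, Cacnb3 stood at 162 and 236 CPM in these cells, against 8.18 and 16.02 CPM in T cells. Monocyte and macrophage markers summed to 7130 and 3172 CPM, and the 13 UBD and 19 control cells that also passed the myeloid gate held 59.4% and 39.6% of the UMIs. Il2ra, Tnfrsf4 and Tnfrsf18 were thus counted in Ccr7+ cells as well as in T cells.

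Cells of the tumour line (7769 UBD and 4803 control cells with 3 or more Cdkn2a UMIs and no UMI of Ptprc or of the lymphocyte gate genes) held Tnfrsf9 and Tnfrsf4 at low CPM, but in many UMIs. Tnfrsf9 had 4269 UMIs (28.1 CPM) in the UBD and 5414 UMIs (47.4 CPM) in the control library, and was seen in 26.7% and 33.9% of these cells. Tnfrsf4 had 955 UMIs (6.29 CPM) and 1509 UMIs (13.2 CPM), and was seen in 7.94% and 16.1%. Both were past 1.5-fold lower in the UBD library and were among 6 of 8 tested genes that were, against 20.5% of all genes tested at any level. The rest of the 6, Il2ra, Ikzf2, Ctla4 and Icos, stood at or below 0.132 CPM in UBD and 0.849 CPM in control cells. No share was taken over genes at levels as low as these. T cell markers summed to 3.47 CPM in UBD and 5.19 CPM in control tumour-line cells, and their part was not tested. Median depths were 17047 and 19155 UMIs per cell. All 9 genes were past 1.5-fold higher in T cells than in tumour-line cells, as were 22.2% of all genes in the UBD and 20.3% in the control library.

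**Figure D5:**
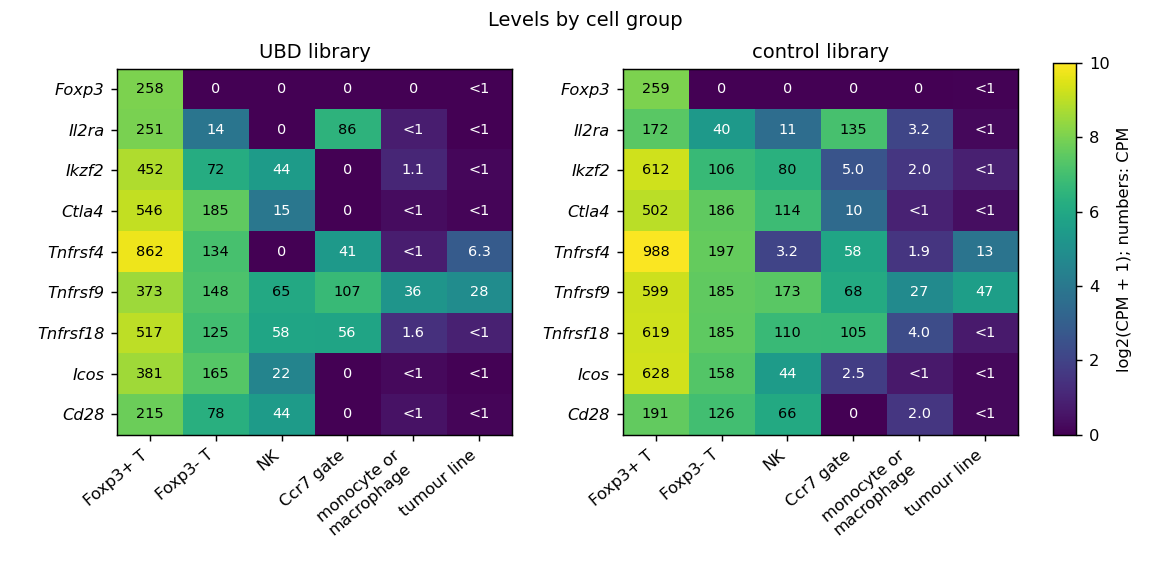
CPM of the 9 genes (numbers) in Foxp3+ and Foxp3- T cells, NK cells, Ccr7+ cells, monocytes or macrophages and tumour-line cells of the UBD library (left) and the control library (right), coloured by log2(CPM + 1). Foxp3 is confined in these sums to Foxp3+ cells, which defines them, apart from under 1 CPM in tumour-line cells, while Tnfrsf9 is above 25 CPM in every group of both libraries.

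The ligands of these receptors were described in the cells that can present them. The list also held Cd40 and Cd70, which are ligands of none of the members. Where measured, both count as ligands in the numbers below. In monocytes or macrophages 5 of 6 measured ligand genes were past 1.5-fold lower in the UBD library and none was past 1.5-fold higher, against 23.6% and 15.4% of all genes, with a median log2 ratio of -1.29, against -0.05 over all genes. Cd86, a ligand of CD28 and CTLA4, stood at 54.4 CPM in UBD and 127 CPM in control cells (2.34-fold lower). Cd40, a receptor for T cell help, stood at 22.0 and 54.0 CPM, and Tnfsf9, the ligand of Tnfrsf9, at 15.3 and 37.4 CPM. Cd80 and Icosl, the ligand of Icos, were lower as well, at 9.04 and 22.9 CPM and at 1.85 and 6.37 CPM, whereas Il2 stood at 2.11 and 2.15 CPM. In tumour-line cells 5 of 8 ligands were past 1.5-fold lower, against 20.5% of genes, and 2 were past 1.5-fold higher, against 9.23%. Tnfsf9 stood there at 4.92 and 10.1 CPM. The higher genes were Tnfsf4, the ligand of Tnfrsf4, with 341 UMIs (2.25 CPM) in UBD and 13 UMIs (0.114 CPM) in control cells, a ratio of 19.7 (11.4 to 37.5), and Tnfsf18, the ligand of Tnfrsf18, with 69 and 7 UMIs, a ratio of 7.42. In Ccr7+ cells 2 of 6 ligands lay past 1.5-fold in each direction, against 24.3% lower and 13.7% higher of all genes. Cd86 was within 1.5-fold there at 188 and 243 CPM, Cd40 was 1.60-fold lower at 107 and 170 CPM, and Cd80 stood at 132 and 85.2 CPM. The Ccr7+ cells thus had no common direction. In the monocyte or macrophage gate, the markers of that type summed to 15936 CPM in UBD and 15511 CPM in control cells, but mature dendritic markers to 168 and 447 CPM, neutrophil markers to 100.3 and 589 CPM, NK markers to 6.99 and 49.7 CPM, and Gm42418 with Malat1 to 12819 and 21776 CPM. Their part in the lower ligand levels was not tested.

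Genes that work with the members were grouped in 5 lists and described in all T cells, where the median log2 ratio of all genes tested was -0.008 and 12.4% of them were past 1.5-fold lower and 8.64% higher. These sums include the mixed cells, which held 53.5% of UBD and 49.6% of control T cell UMIs. The levels below are therefore not those of T cells alone. Of 18 measured genes of the regulatory T programme 7 were past 1.5-fold lower and 1 higher, with a median log2 ratio of -0.18. Among those with the most UMIs, Maf, a transcription factor of several helper and regulatory T cell types, stood at 51.2 CPM in UBD and 94.1 CPM in control T cells (1.84-fold lower), while Tgfb1 stood at 165 and 163 CPM and Rora at 157 and 137 CPM. Of 11 IL-2 receptor partners and feedback genes 2 were lower and 1 higher, with a median of -0.37. Il2rb, the beta chain that pairs with Il2ra, stood at 241 and 331 CPM, the kinase gene Jak1 at 177 and 204 CPM, and Il2rg, the shared gamma chain, at 146 and 147 CPM. The gene that was higher, Il2, was chosen after its value was seen: it had 41 UMIs (12.4 CPM) in UBD and 12 UMIs (3.004 CPM) in control T cells, a ratio of 4.14 (2.13 to 8.65). Of 15 TRAF adaptor and NF-kB genes 4 were lower and none higher, with a median of -0.32. The inhibitor genes Nfkbia, at 577 and 574 CPM, and Tnfaip3, at 161 and 201 CPM, were within 1.5-fold, as was Bcl2a1b at 431 and 420 CPM, whose near-identical copies make its counts uncertain. Of 13 genes of CD28 family signalling 1 was lower and none higher, with a median of -0.12. Lat stood at 207 and 159 CPM, Grb2 at 144 and 133 CPM and Lck at 132 and 127 CPM. Of 8 other costimulatory receptors 1 was lower, Cd40lg with 1 and 22 UMIs, and 1 higher, Cd226 at 73.9 and 48.3 CPM, with a median of -0.22. Cd2, Cd27 and Cd6 were within 1.5-fold, at 279 and 312 CPM, 56.4 and 81.1 CPM, and 74.8 and 65.6 CPM. In these sums Lat, Grb2 and Lck were thus within 1.5-fold between the libraries, while Cd28 itself was past 1.5-fold lower.

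Within T cells, the regulatory T list had the highest medians of the 5 lists in Foxp3+ over Foxp3- cells. In Foxp3+ cells 10 of 15 measured genes were past 1.5-fold higher in the UBD library and 13 of 17 in the control library, with median log2 ratios of 2.04 and 1.39, against 0.13 and 0.22 over all genes tested, of which 20.4% and 23.8% were past 1.5-fold higher. Among 2021 genes other than the members with at least 10 UMIs in the Foxp3+ cells of each library, the 5 with the largest smaller ratio of the 2 libraries were Izumo1r, which encodes folate receptor 4 and is known from regulatory T cells, with ratios of 21.3 and 7.64, Klrg1, an inhibitory receptor gene, with 13.7 and 7.55, Bmyc with 7.40 and 8.17, Maf with 6.14 and 5.26, and Ighm, an antibody heavy chain gene, with 8.07 and 5.06. These ratios and those of the 8 members rest on the same split of the cells. Of the CD28 signalling list, 3 and 1 of 13 genes were past 1.5-fold higher in Foxp3+ cells, and 5 and 4 were past 1.5-fold lower, against 27.6% and 16.7% of all genes lower.

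Patterns across cell groups were compared by Pearson correlation of log2(CPM + 1) over 16 points, each a cell group of 1 library, among 8383 genes that leave out the members and the gate genes. The points share libraries and depth, so the values are descriptions. They include the first mature dendritic gate, most of whose cells held 3 or more Cdkn2a UMIs, and leave out the Ccr7+ cells. Of these genes Cd2, a T and NK cell adhesion receptor, had the pattern most like those of Cd28 (0.994), Ctla4 (0.988), Icos (0.986), Tnfrsf18 (0.981) and Ikzf2 (0.966). The next most alike were Gimap1 for Cd28 (0.990), Zap70 for Ctla4 (0.982), Grap for Icos (0.982), Ltb for Tnfrsf18 (0.977) and Klrg1 for Ikzf2 (0.965). Tnfrsf9 was most like Grap (0.943) and Dkkl1 (0.928), and Tnfrsf4 like Sdcbp2 (0.940) and Sit1 (0.940). Il2ra was most like Sdf4 (0.940) and Mirt1 (0.937), and Foxp3, which was at or near 0 in most groups, like Bclaf1 (0.907) and Tpp2 (0.894). Some members were closer to each other than to these genes: Ctla4 and Icos had 0.991, Tnfrsf18 and Cd28 0.988, Ikzf2 and Tnfrsf18 0.981, and Tnfrsf9 and Ctla4 0.945. The member closest to Foxp3 was Tnfrsf9 at 0.607, and Il2ra and Tnfrsf4 were closest to each other at 0.895.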

How the data were processed

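The deposited files hold raw UMI counts per gene and cell barcode for 1 UBD and 1 control library; per the file headers the matrices were written by software version 3.1.0, and the submitters' processing notes name Cell Ranger, STAR and mm10. Barcodes under 200 genes, under 500 UMIs or over 20% mitochondrial UMIs were dropped from 14158 UBD and 14890 control barcodes (204267192 and 173973178 UMIs). Scrublet (in scanpy 1.11.5, expected doublet rate 0.1) marked 562 and 530 as doublets, which were removed. UMIs were summed per library and cell group and scaled to CPM. Levels have exact Poisson intervals, ratios exact conditional binomial intervals and shares Clopper-Pearson intervals, all at 95%. A gene with fewer than 20 summed UMIs over the 2 sums compared was not tested, and with 1 library per group no p-value was computed. A gene at 0 on one side was set to 3 UMIs there. The calculations were tested on simulated data. Software was Python 3.11.15, numpy 2.4.6, scipy 1.17.1, pandas 2.3.3, anndata 0.12.19 and matplotlib 3.10.9.

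NK, myeloid and tumour-line cells were gated by UMIs of few genes: Ncr1 for NK cells, 3 or more summed UMIs of myeloid genes, among them Csf1r, Adgre1, Cd14 and Itgam, for monocytes or macrophages, and 3 or more of Cdkn2a for the tumour line. Apart from the 9 members, genes named were the 2 nearest in pattern to each member, the 5 with the largest Foxp3+ over Foxp3- ratio in both libraries, and up to 3 per list with the most UMIs; other genes were named after their values were seen. Some genes of the lists are not reported here by name. The members and lists were chosen with earlier results of these data known. Alternatives varied the T cell, CD8, Foxp3 and myeloid gates, doublets, cell filters, mixed cells, scaling, weighting, thinning and the UMI minimum.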

Additional observations from a re-analysis of the deposited data

Results flagged for a closer look

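Tnfrsf9 and Tnfrsf18 had UBD over control differences of opposite direction in different cell groups, each with a counting interval that excluded a ratio of 1. The difference between the cell groups was not tested. For Tnfrsf9 the log2 ratio was -0.68 in Foxp3+ T cells, -0.28 in CD8 T cells, -0.58 in T cells with neither a Cd4 nor a Cd8a UMI and -0.75 in tumour-line cells, but 0.42 in monocytes or macrophages. For Tnfrsf18 it was -0.52 in CD8 T cells, -0.75 in T cells with neither UMI and -1.32 in monocytes or macrophages, but 0.52 in tumour-line cells, where the gene stood at 0.903 CPM in the UBD and 0.630 CPM in the control library. After thinning to 1000 UMIs the share of cells with a Tnfrsf18 UMI ran the other way in both of these groups, at 0.416% of UBD and 0.167% of control monocytes or macrophages and 0.052% and 0.146% of tumour-line cells, with intervals of the difference that span 0.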

How the results depend on the processing

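No paired analysis was possible because each group has 1 library. Of 1245 values recomputed over 18 settings, most moved by less than their counting interval or stayed within 1.5 times. The number of the 9 genes past 1.5-fold lower in all T cells was 6, but 1 with UBD subset levels at control subset shares and 2 in T cells without a Foxp3 UMI, both chosen after seeing the data. Foxp3 itself sets the cell groups of both settings. In the subsets the numbers were 2 in Foxp3+, 1 in CD4, 2 in CD8 and 3 in cells with neither UMI. With doublets kept they were 0, 2, 4 and 6 in that order, with cells weighted equally 4 in Foxp3+ and 4 in CD4 cells, and without mixed cells 2 in CD4 cells. The share of all genes past 1.5-fold was not taken with doublets kept, with cells weighted equally or at control subset shares. Counts under those settings thus describe the processing and do not set the members apart from other genes. Genes of the 5 lists lower in T cells numbered 15, but 24 with doublets kept and 23 with cells weighted equally. The number of shares with an interval below 0 was 7, but 4 when thinned to 2000 UMIs. The Foxp3 share difference of -2.52 percentage points was -4.82 without thinning, and at 500 UMIs its interval (-3.42 to 0.0525) spanned 0. Ligands lower in the mature dendritic gate numbered 1, but 2 without its Cdkn2a cells. With cells weighted equally the log2 ratio of Icos in CD4 cells turned to -0.073, and that of Il2ra in T cells over the mature dendritic gate of the UBD library to -0.18; the causes were not tested. Depth limits the Foxp3+, CD4 and UBD NK cells most, with 25, 23 and 20 UBD cells.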

Other observations

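In Foxp3+ T cells, genes of the regulatory T programme went in both directions: of 12 measured genes 3 were past 1.5-fold higher in the UBD library and 2 lower, with a median log2 ratio of 0.16. Of all genes tested there 12.5% were higher and 23.5% lower, with a median of -0.05. The following genes were chosen after their values were seen. Gata3, a transcription factor found in tissue regulatory T cells, stood at 115 CPM in UBD and 45.3 CPM in control Foxp3+ cells, Klrg1 at 187 and 100.4 CPM, and Prdm1, which encodes the repressor Blimp1, at 129 and 51.8 CPM. Tnfrsf1b, the second TNF receptor, had 4 UMIs (28.7 CPM) in UBD and 46 UMIs (149 CPM) in control Foxp3+ cells, and Lrrc32, which anchors latent TGF-beta on regulatory T cells, had 1 UMI (7.18 CPM) and 22 UMIs (71.3 CPM). Il1rl1, the receptor of IL-33, stood at 21.5 and 159 CPM, and Areg at 388 and 275 CPM in these cells. Mixed cells held 56.0% of the UBD and 58.5% of the control Foxp3+ UMIs.

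In CD8 T cells 4 of 15 TRAF adaptor and NF-kB genes were past 1.5-fold lower in the UBD library and 1 was higher, with a median log2 ratio of -0.45. Of all genes tested there 11.8% were lower and 12.7% higher, with a median of 0.01. Bcl2l1, which encodes a survival protein, stood at 27.8 CPM in UBD and 49.1 CPM in control CD8 cells, and Relb, a subunit of NF-kB, at 26.8 and 46.8 CPM. Of 13 genes of CD28 family signalling 2 were lower there and none higher, with a median of -0.27, and Prkcq, a kinase that acts downstream of the T cell receptor and CD28, stood at 20.6 CPM in UBD and 35.5 CPM in control CD8 cells. Mixed cells held 47.8% of the UBD and 31.1% of the control CD8 UMIs.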
